A study of Mus musculus with 3 samples.

Results

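This account covers 31 genes of glucose breakdown, lactate handling and the response to low oxygen, out of 31053 genes in a mouse single-cell RNA table, followed across the cell clusters of 2 naive brains and 2 brains with metastases. The genes were taken by name: 14 glycolytic enzymes from hexokinase to pyruvate kinase, the lactate dehydrogenases Ldha and Ldhb, the lactate carriers Slc16a1 and Slc16a3, 12 genes known to respond to low oxygen, and the oxygen-sensing factor Hif1a. The rule for choosing them uses no measured value, although earlier results of these data were known when they were listed. All 31 were present in the table.

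Glycolysis splits glucose into pyruvate in the cytosol and yields ATP without oxygen, and lactate dehydrogenase then turns pyruvate into lactate, which leaves the cell with protons through monocarboxylate carriers. Where oxygen is low, Hif1a protein escapes degradation and raises transcription of most of these enzymes and of genes such as Bnip3, Egln3 and Adm, and many carcinomas run this programme with oxygen present. In normal brain, glycolysis is prominent in astrocytes and endothelium, while the choroid plexus, the epithelium that secretes cerebrospinal fluid, is rich in mitochondria.

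Naive brains came from female C57BL/6 mice aged 2 to 3 months that carried no tumour, and metastatic brains from mice of the same strain, sex and age about 2 weeks after E0771 cells, a mouse mammary carcinoma line, were injected into the carotid artery. Mice were perfused with PBS, and the labels give 1 hemisphere as the material. Each suspension was made with a papain-based kit and a Percoll gradient that enriches immune cells, and was stained with 6 surface antibodies and a hashing antibody of its own before all were pooled in 1 single-cell run (10x 3' chemistry, version 2). The design text speaks of more pooled samples than the 4 hashing antibodies analysed here, and nothing says that the brains were handled on separate days, so p-values measure the spread between these 4 suspensions. A single injected line is a limit of the model, and free RNA in the pool was common to all brains.

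Lactate dehydrogenase separated the cell types most clearly, so the stretches of RefSeq promoter around the start sites of its genes are given with those of Gapdh and Slc16a3, which changed in more than 1 cluster. Each runs 5′ to 3′ from 250 bases before to 50 after the start in build GRCm38.p6. Capitals mark ACGTG or GCGTG, the core letters of the element that binds the Hif1a complex, on either strand.

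Ldha, chr7:46845554-46845853, + strand: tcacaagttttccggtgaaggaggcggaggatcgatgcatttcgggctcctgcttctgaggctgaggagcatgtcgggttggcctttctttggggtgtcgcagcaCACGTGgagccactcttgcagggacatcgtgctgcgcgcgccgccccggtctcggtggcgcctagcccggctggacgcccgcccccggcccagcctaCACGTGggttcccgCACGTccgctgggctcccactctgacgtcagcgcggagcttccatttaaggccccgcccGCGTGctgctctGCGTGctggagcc

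Ldhb, chr6:142507908-142508207, - strand: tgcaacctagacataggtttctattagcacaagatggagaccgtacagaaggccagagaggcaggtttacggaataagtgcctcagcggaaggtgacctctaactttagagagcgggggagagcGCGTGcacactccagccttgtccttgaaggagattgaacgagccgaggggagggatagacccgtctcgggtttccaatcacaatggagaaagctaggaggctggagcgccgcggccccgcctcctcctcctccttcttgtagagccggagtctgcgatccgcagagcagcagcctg

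Gapdh, chr6:125165724-125166023, - strand: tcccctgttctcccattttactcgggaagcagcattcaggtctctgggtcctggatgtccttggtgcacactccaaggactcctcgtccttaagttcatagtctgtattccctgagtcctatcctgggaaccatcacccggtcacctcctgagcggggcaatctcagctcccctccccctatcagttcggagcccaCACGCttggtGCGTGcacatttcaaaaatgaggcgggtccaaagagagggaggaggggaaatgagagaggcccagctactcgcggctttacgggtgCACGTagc

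Slc16a3, chr11:120948817-120949116, + strand: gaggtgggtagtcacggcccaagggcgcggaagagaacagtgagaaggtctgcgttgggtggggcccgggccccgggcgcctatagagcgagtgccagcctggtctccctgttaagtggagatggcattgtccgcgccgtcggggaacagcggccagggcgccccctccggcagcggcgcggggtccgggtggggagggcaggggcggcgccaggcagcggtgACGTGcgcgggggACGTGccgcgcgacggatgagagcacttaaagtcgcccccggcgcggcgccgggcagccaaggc

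The table lists a second Ldha start, chr7:46846832-46847131, with 0 matches to ACGTG and 2 to GCGTG. The Ldha window shown holds 5 matches to ACGTG and 2 to GCGTG, the most ACGTG of any listed window, whereas the Ldhb window holds none of the first and 1 of the second. Gapdh has 1 and 2, and Slc16a3 has 2 and 0. CACGTG reads the same on both strands and counts for each, and the motifs may share bases. The table held 30 of the 31 genes (Ndrg1 was not matched). Of those 30, 73.3% had ACGTG in at least 1 listed promoter, compared with 21.8% of 27025 genes, and 63.3% had GCGTG, compared with 35.2%. The genes were listed because many are known Hif1a targets, so these shares describe the list and were not tested. Gpi1 and Tpi1 had neither motif.

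The authors' 13 numbered clusters were used as deposited, and 12421 cells entered. The naive brains gave 1691221 and 694223 UMIs (unique molecules counted) and the metastatic brains 45724262 and 57620835. Clusters 0, 1, 3, 4 and 5, together 13.8% and 7.30% of naive and 73.6% and 70.6% of metastatic cells, are the clusters treated as tumour-like: 84.1% to 99.8% of their cells held a UMI of 10 fixed carcinoma markers (keratins, Epcam and others). The markers summed to 856 to 1083 CPM there (the UMIs of a gene per 1000000 UMIs summed over a brain and cluster). Cells outside them were not free of these markers: 91.4% of cluster 9 cells held such a UMI, and clusters 7, 10 and 11 had 898, 901 and 890 CPM. None of the markers reached the 2-fold excess over all other cells required for a name, so clusters 0, 1, 3, 4 and 5 are called the large clusters below. For each of them, all other cells include the other large clusters, so a marker that they share could hardly reach that excess. The outcome therefore does not bear on their identity. Wfdc2, a carcinoma marker, was among the 10 leading genes of cluster 0. Cluster 2 held 10 of 11 monocyte and 8 of 10 macrophage markers and high CD45 and CD11b tags, cluster 6 was endothelial-like (11 of 11 markers), cluster 11 mural-like (6 of 11), and clusters 7 and 9 choroid plexus-like (9 of 10 each). Cluster 12 held 11 of 11 microglia markers together with 7 of 9 neutrophil, 5 of 11 monocyte and 5 of 10 macrophage markers. Cluster 6 also held 4 of 11 mural and 3 of 6 ependymal markers. Cluster 2 also held 4 of 9 neutrophil and 3 of 11 microglia markers. Levels are given in CPM. Each UMI is a molecule read at its 3' end, so levels need no division by length.

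Glycolytic enzymes were highest in large clusters 0 and 3. The 14 enzymes summed to 9278 and 10003 CPM in cluster 0 of the metastatic brains and to 9495 and 10724 CPM in cluster 3, a large cluster rich in interferon genes. Cluster 2, with its monocyte and macrophage markers, had 4183 and 4606 CPM, so cluster 0 stood 2.19-fold ± 0.03 higher (SD, n = 2 brains). In naive brains the sum was 3587 and 4399 CPM in endothelial-like cluster 6, 6009 and 4229 CPM in mural-like cluster 11, 4032 and 3362 CPM in choroid plexus-like cluster 7, 3347 and 3031 CPM in cluster 9, and 2910 and 2308 CPM in cluster 12. By those sums cluster 6 overlapped both cluster 11 and cluster 7, cluster 11 lay above cluster 7, cluster 9 lay just under cluster 7, and cluster 12 lay below all the others. With metastases the sum over all cells of other clusters reached into the range of the large ones. It was 8043 and 9497 CPM in cluster 11 and 7956 and 8810 CPM in cluster 10. Both lay above the 7359 CPM of large cluster 5 in metastasis 1. Of 206 cells in cluster 10, which no marker list named, 85 were called doublets and 71.4% held a carcinoma UMI. Without cells holding such a UMI, cluster 11 had 2646 and 2932 CPM with metastases (4 and 6 cells). Cluster 10 had 7337 and 5851 CPM (17 and 30 cells). The part of carcinoma RNA in these sums was not tested. The clusters were made from the same RNA, so differences between them are described and not tested.

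**Figure D1:**
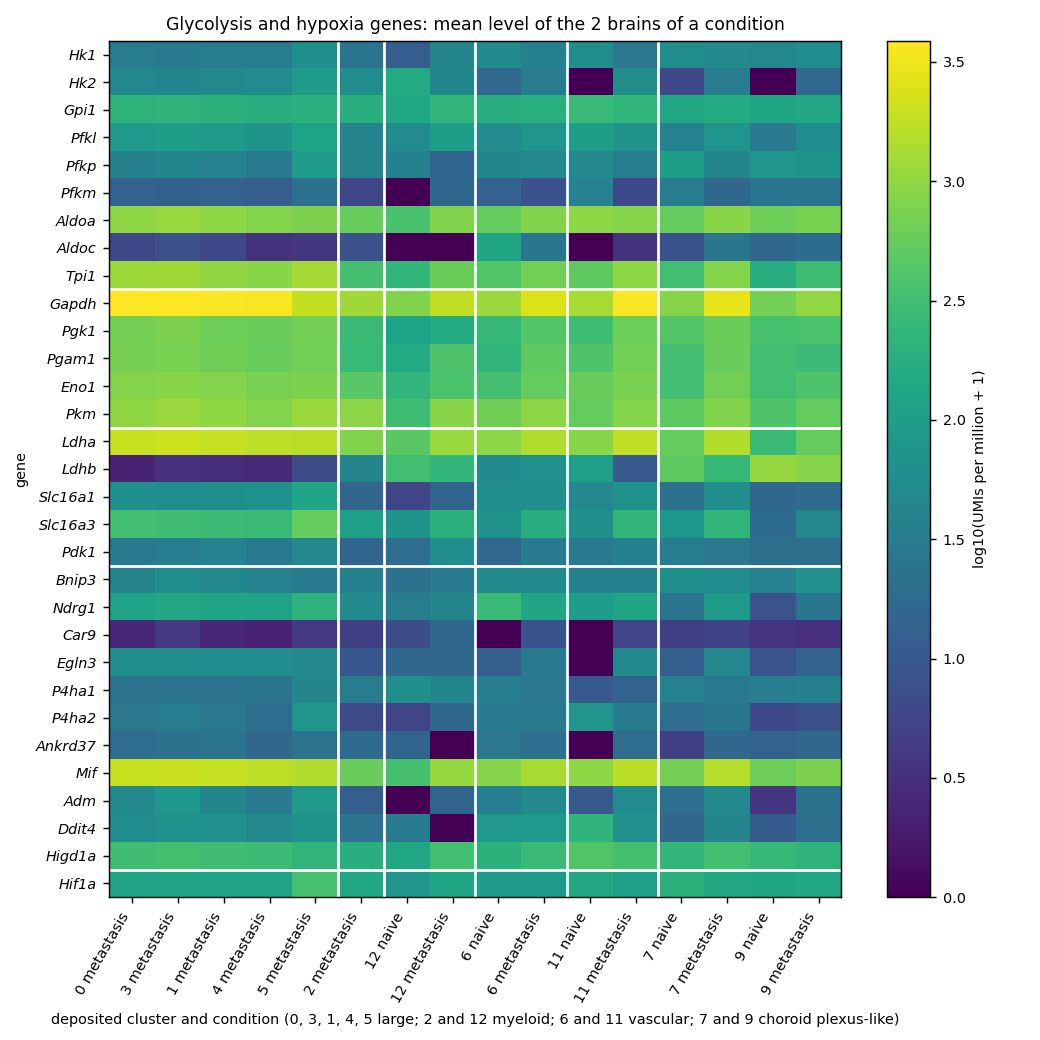
Mean level of each gene over the 2 brains of a condition (colour, log10 of CPM + 1) in the deposited clusters; rows run from hexokinases to Hif1a with white lines between roles, and naive brains are shown where they held at least 20 cells. The large clusters at the left are bright in the rows from Aldoa to Ldha and dark in Ldhb, whereas Ldhb is brightest in cluster 9.

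The steps that spend ATP were carried by different isoforms in different cells. Hk1 and Hk2 start the pathway by trapping glucose as its phosphate. In cluster 0, Hk2 took 60.6% and 58.1% of hexokinase UMIs in the metastatic brains and Hk1 most of the rest. Cluster 2 also used Hk3, the hexokinase of myeloid cells, for 22.5% and 22.2%. Cluster 9 of naive brains had 18 Hk1 UMIs and no Hk2 UMI among 19 of the family. Cluster 12 of naive brains was the reverse, with 17 of 20 hexokinase UMIs from Hk2 in naive 1 and 13 of 15 in naive 2.

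Hk2 reached 158 CPM in both naive brains in cluster 12, higher than in any other cluster of those brains, where it lay between 0 and 80.6 CPM. With metastases it was 26.5 and 61.1 CPM there, from 1 and 2 UMIs. Naive 2 carried 32746 CPM of neutrophil markers in cluster 12 and naive 1 only 602 CPM. Without cells that held neutrophil or erythrocyte UMIs, Hk2 was 132 and 213 CPM in the naive brains. After thinning to 1000 UMIs, 12.1% of 33 and 15% of 20 naive cells in cluster 12 held a Hk2 UMI, compared with 0% in cluster 9 of the same brains.

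Phosphofructokinase, which commits sugar to the pathway, was mostly the liver-type gene Pfkl in the large clusters, with 65.9% and 63.0% of the family's UMIs in cluster 0. In naive cluster 7 the platelet-type gene Pfkp led instead, with 66.7% and 52.2%, and Pfkl had 22.9% and 21.7%. Pfkm, the muscle-type gene, stayed at 9.74 and 14.9 CPM in cluster 0. Aldoa, which splits the 6-carbon sugar, was 985 and 940 CPM in cluster 0 against 539 and 592 CPM in cluster 2. Its brain paralog Aldoc was at or under 10 CPM in every large cluster of the metastatic brains and reached 236 CPM in cluster 6 of naive 2, from 26 UMIs in 6.12% of the cells (unthinned), and 26.3 CPM in naive 1. Astrocytes are the usual source of Aldoc in brain. Gpi1, which isomerises glucose phosphate, barely varied, at 207 and 202 CPM in cluster 0, 183 and 187 CPM in cluster 2 and 132 and 150 CPM in cluster 9 of the metastatic brains. Tpi1, which interconverts the triose phosphates, varied more, from 1147 and 1138 CPM in cluster 0 to 312 and 371 CPM in cluster 2 and 294 CPM in both brains in cluster 9.

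Gapdh was the most abundant of the enzymes in cluster 0, and the other genes of the later steps lay below Tpi1. Gapdh, which oxidises the triose phosphate, was 3521 and 4237 CPM in cluster 0 and 1071 and 1314 CPM in cluster 2. In cluster 9 it was 638 and 731 CPM in naive brains and 914 and 1097 CPM with metastases. Pkm, pyruvate kinase, was the exception to the low level of cluster 2: its 939 and 929 CPM there lay close to the 938 and 1049.8 CPM of cluster 0. Pgk1, Pgam1 and Eno1 followed Gapdh, with 675, 757 and 833 CPM in cluster 0 and 276, 231 and 468 CPM in cluster 2 of metastasis 1. Gapdh, Eno1, Ldha and other abundant enzymes have many processed pseudogenes, and reads shared with those copies could not be followed in a count table.

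Pyruvate and lactate genes gave the sharpest contrast. Ldha, whose subunit favours lactate formation, was 1884 and 2016 CPM in cluster 0 and 1966 and 2174 CPM in cluster 3. Ldhb, whose subunit favours the return of lactate to pyruvate, was 1.27 and 1.34 CPM in cluster 0. The large clusters therefore held almost only Ldha, with 99.9% of lactate dehydrogenase UMIs in clusters 0 and 3 of both metastatic brains (43148 of 43177 and 49500 of 49533 in cluster 0). Cluster 2 had 94.5% and 95.5%, and cluster 6 had 95.6% and 94.1% in naive brains.

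Of the choroid plexus-like clusters, cluster 9 ran the other way. In cluster 9 of naive brains Ldhb was 967 and 1165 CPM and Ldha 283 and 267 CPM, so that Ldha took only 22.6% and 18.6% of the family. Ldhb was among the 10 leading genes of cluster 9, so its level there partly made the cluster. In cluster 7 Ldha took 52.2% and 53.2% in naive brains, and in cluster 12 it took 56.5% and 63.1%. After thinning to 1000 UMIs, 57.5% and 58.3% of naive cluster 9 cells held an Ldhb UMI, and 0% and 0.066% of cluster 0 cells did in the metastatic brains.

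**Figure D2:**
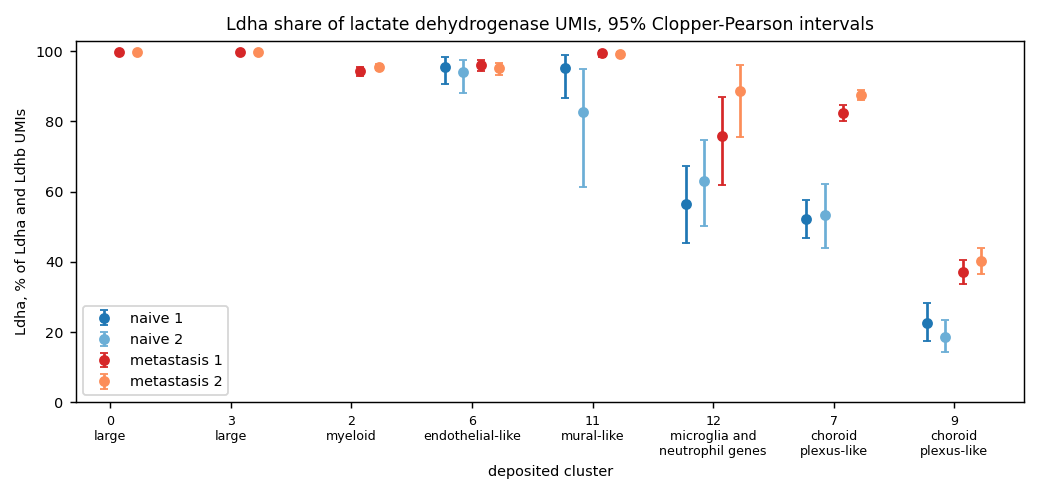
Ldha as a percentage of Ldha and Ldhb UMIs in each brain and cluster, with 95% Clopper-Pearson intervals that cover counting error only; naive brains are left out of clusters 0, 3 and 2, where they had few cells. The large clusters sit at 99.9%, and the metastatic brains lie above the naive ones in clusters 7, 9, 11 and 12.

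Both lactate carriers were higher in cluster 0 than in cluster 2. Slc16a3, the lactate exporter of glycolytic cells, was 303 and 323 CPM in cluster 0, 111 and 112 CPM in cluster 2 and 15.4 and 19.7 CPM in naive cluster 9. It took 82.0% and 84.6% of the UMIs of both carriers in cluster 0. Slc16a1, a carrier found in most tissues, was 66.8 and 58.9 CPM in cluster 0 and 13.1 and 15.6 CPM in cluster 2. Pdk1, a pyruvate dehydrogenase kinase, was low throughout, at 27.2 and 32.3 CPM in cluster 0 and 9.82 and 16.5 CPM in cluster 2.

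The hypoxia genes did not share 1 pattern. Mif, a cytokine that also responds to hypoxia, made up most of their sum, with 1922 and 1905 CPM in cluster 0, 572 and 616 CPM in cluster 2 and 581 and 676 CPM in naive cluster 9. Without Mif the other 11 genes summed to 688 and 750 CPM in cluster 0, to 717 and 800 CPM in naive cluster 6 and to 951 and 807 CPM in naive cluster 11. On that sum cluster 0 overlapped naive cluster 6 and lay below naive cluster 11, while clusters 3 (734 and 966 CPM) and 5 (773 and 921 CPM) overlapped both. Cluster 2 had 344 and 413 CPM and naive cluster 9 had 427 and 355 CPM.

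Single hypoxia genes were highest in particular clusters. Ndrg1, a stress and differentiation gene, was 270 and 273 CPM in naive cluster 6, above the 108 and 125 CPM of cluster 0. Ddit4, an inhibitor of mTOR signalling, was 197 and 231 CPM in naive cluster 11 and 59.3 and 50.7 CPM in cluster 0. Egln3, an oxygen-dependent hydroxylase that marks Hif1a protein for degradation, was 62.3 and 51.9 CPM in cluster 0 and 8.51 and 8.69 CPM in cluster 2. Car9, the carbonic anhydrase used as a tumour hypoxia marker, was nearly undetected in the large clusters, at 0.92 and 2.24 CPM in cluster 0. Higd1a, a mitochondrial protein induced by hypoxia, ranged only from 166 to 392 CPM over the large clusters and cluster 2 of the metastatic brains.

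Within the large clusters, cluster 3 and cluster 5 stood out for hypoxia genes. Adm, the peptide adrenomedullin that dilates vessels, was 55.9 and 104 CPM in cluster 3 and 42.5 and 54.0 CPM in cluster 0. Bnip3, a mitophagy receptor, was 41.1 and 71.6 CPM in cluster 3 and 31.9 and 45.9 CPM in cluster 0. Both genes were higher in cluster 3 within each brain, yet the gap between the brains was about as large. Cluster 5, whose leading genes are mitochondrial transcripts, had 374 and 322 CPM of Hif1a against 129 and 115 CPM in cluster 0. It also had more Slc16a3 (523 and 583 CPM) and P4ha2, a collagen prolyl hydroxylase (71.1 and 77.9 CPM, against 29.8 and 22.0 CPM), with less Gapdh (1808 and 1776 CPM). Its cells held a median of 2793 UMIs, compared with 13988.5 in cluster 0. P4ha1, the paralog of P4ha2, was 23.1 and 23.3 CPM and Ankrd37, a small ankyrin protein, 15.5 and 21.4 CPM in cluster 0.

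Over single cells of the large clusters, glycolytic enzymes varied together. Cells of the metastatic brains were thinned to 5000 UMIs and Spearman correlations taken within a cluster and brain. Among the 9 genes, 8 enzymes and Ldha, with at least 1 UMI per cell on average, the median pairwise rho was 0.20 and 0.19 in cluster 0 (1638 and 1503 cells) and 0.22 and 0.26 in cluster 3 (311 and 837 cells). Pairs of nuclear respiratory chain genes at the same threshold had medians of 0.02 in cluster 0 and 0.03 and 0.04 in cluster 3. In cluster 0 Ldha correlated most with Gapdh (0.39 and 0.33), Eno1 (0.38 and 0.37) and Aldoa (0.37 and 0.41), and in cluster 3 with Aldoa (0.42 and 0.45).

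Of the hypoxia genes, Mif had rho with Ldha of 0.12 and 0.21 in cluster 0 and 0.24 and 0.28 in cluster 3, and Higd1a 0.04 and 0.15 in cluster 0 and 0.21 and 0.25 in cluster 3. Bnip3 had rho with Ldha of 0.06 and 0.19 in cluster 0 and 0.10 and 0.29 in cluster 3, higher in metastasis 2 both times. Ndrg1, Ddit4 and Hif1a lay between -0.11 and 0.09 in all 8 combinations of cluster (0, 1, 3 and 4) and brain. Only Mif and Higd1a among them had 1 UMI or more per thinned cell, and below that a weak rho is no finding. All cells share 1 library, and these values are descriptions without p-values.

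**Figure D3:**
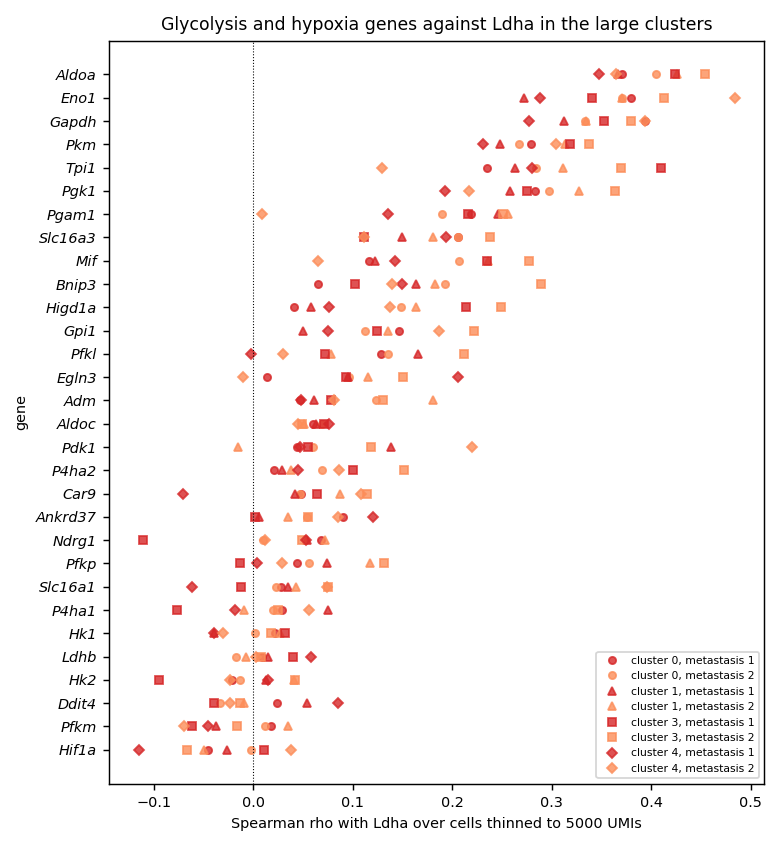
Spearman rho of each gene with Ldha over cells thinned to 5000 UMIs, 1 point per large cluster (0, 1, 3 and 4) and metastatic brain. Aldoa, Eno1 and Gapdh lie highest, Aldoa between 0.35 and 0.45, and Hif1a and Pfkm spread around 0.

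Condition was compared where each of the 4 brains held at least 20 cells, which left clusters 6, 7, 9 and 11, with edgeR's quasi-likelihood test on UMIs summed per brain and Benjamini-Hochberg adjustment over all genes tested in a cluster (called at an adjusted p under 0.05). The large clusters could not be compared in this way because the naive brains held few such cells. With at least 10 cells per brain, cluster 1 (13 and 11 naive cells) gave no call by edgeR among 30 genes of the list. Of these, 6 were at an unadjusted p under 0.05, beside 636 of 9686 genes tested. In either direction, 0.0619% of the 9686 genes were called. Of the naive-labelled cells of cluster 1, 100% (naive 1) and 72.7% (naive 2) held a carcinoma UMI, although naive mice carried no tumour. Where those cells came from was not tested, so the cluster 1 result says nothing about condition. CPM beside a fold change are TMM-scaled, log2 fold changes are metastasis over naive, and SE is their standard error. In a pool, fewer molecules per cell and a change in the mix of cells in a cluster cannot be told apart.

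In endothelial-like cluster 6, Gapdh, Pgam1 and Slc16a3 were higher with metastases and Ndrg1 was lower. Gapdh was 1092 and 1392 CPM in naive brains and 2721 and 2659 CPM with metastases, a log2 fold change of 1.12 (SE 0.20, adjusted p = 0.0141). Pgam1, the mutase before enolase, went from 210 and 289 CPM to 658 and 456 CPM (log2 1.18, SE 0.28, adjusted p = 0.0344). Slc16a3 went from 79.5 and 72.2 CPM to 241 and 163 CPM (log2 1.40, SE 0.37, adjusted p = 0.0433). The brains of the conditions did not overlap in these 3 genes. The share of all tested genes without overlap was not counted, so this adds nothing to the calls.

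Ndrg1 moved against them, from 296 and 309 CPM in naive brains to 161 and 135 CPM with metastases (it fell by 1.03 on the log2 scale, SE 0.27, adjusted p = 0.0433). Of 23 listed genes tested in cluster 6, 3 were called higher and 1 lower, beside 2.34% of 4539 genes called higher and 5.24% lower. Tpi1, Pgk1, Eno1 and Ldha had log2 fold changes of 0.64 to 0.79 with adjusted p from 0.0730 to 0.0811 by edgeR and were not called. Aldoc fell from 28.9 and 268 CPM to 5.18 and 49.2 CPM without passing the test (adjusted p = 0.136), since brains within a condition differed widely.

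Other changes in cluster 6 accompany these. Of 37 other glycolysis genes, 13 were tested, none was called higher and 2 were called lower: Slc2a1, the glucose transporter of the blood-brain barrier (745 and 619 to 269 and 381 CPM), and Bsg, the chaperone of lactate carriers (6498 and 5527 to 3200 and 2024 CPM). Of 57 other HIF and hypoxia genes, 29 were tested, 0 were called higher and 6 lower, among them Epas1, the endothelial HIF paralog. The 11 endothelial markers summed to 12656 and 9761 CPM in naive brains and 5396 and 5054 CPM with metastases, none at 0, while the 10 carcinoma markers went from 415 and 718 to 660 and 730 CPM, with 6 of 10 at 0 in naive 1 and metastasis 1 and none in naive 2 and metastasis 2. Of 17 immediate early genes tested, 15 were lower. The part of these in the result was not tested.

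Cells without any carcinoma UMI (108 and 73 naive, 99 and 87 with metastases) gave smaller differences in cluster 6. There Gapdh was 1263 and 1230 CPM in naive brains and 1339 and 1929 CPM with metastases (log2 0.40, SE 0.25, edgeR adjusted p = 0.541). Ndrg1 was 339 and 417 CPM and 221 and 197 CPM (a log2 fold change of -0.84, SE 0.32, adjusted p = 0.369). No gene of 1867 tested was called by edgeR in those cells (0% higher and 0% lower, 223 genes at an unadjusted p under 0.05). Endothelial markers were 13661 and 13348 CPM in naive brains and 13447 and 7766 CPM with metastases among them.

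The calls of cluster 6 depended on single brains and on the processing. All 4 were lost with no filter on low counts, Slc16a3 and Ndrg1 with DESeq2, and Pgam1 and Slc16a3 without called doublets. Gapdh was no longer called without naive 1 (adjusted p = 0.0524) or metastasis 2 (0.0553), with log2 fold changes of 0.97 to 1.30 over the brains left out. Pgam1 was lost without naive 1 (0.145), metastasis 1 (0.0825) or metastasis 2 (0.0553), Ndrg1 without naive 1 (0.125), naive 2 (0.0928) or metastasis 2 (0.130), and Slc16a3 without any of the 4 brains (0.0507 to 0.0929). Directions held in each case by edgeR, Ndrg1 between -1.11 and -0.89.

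**Figure D4:**
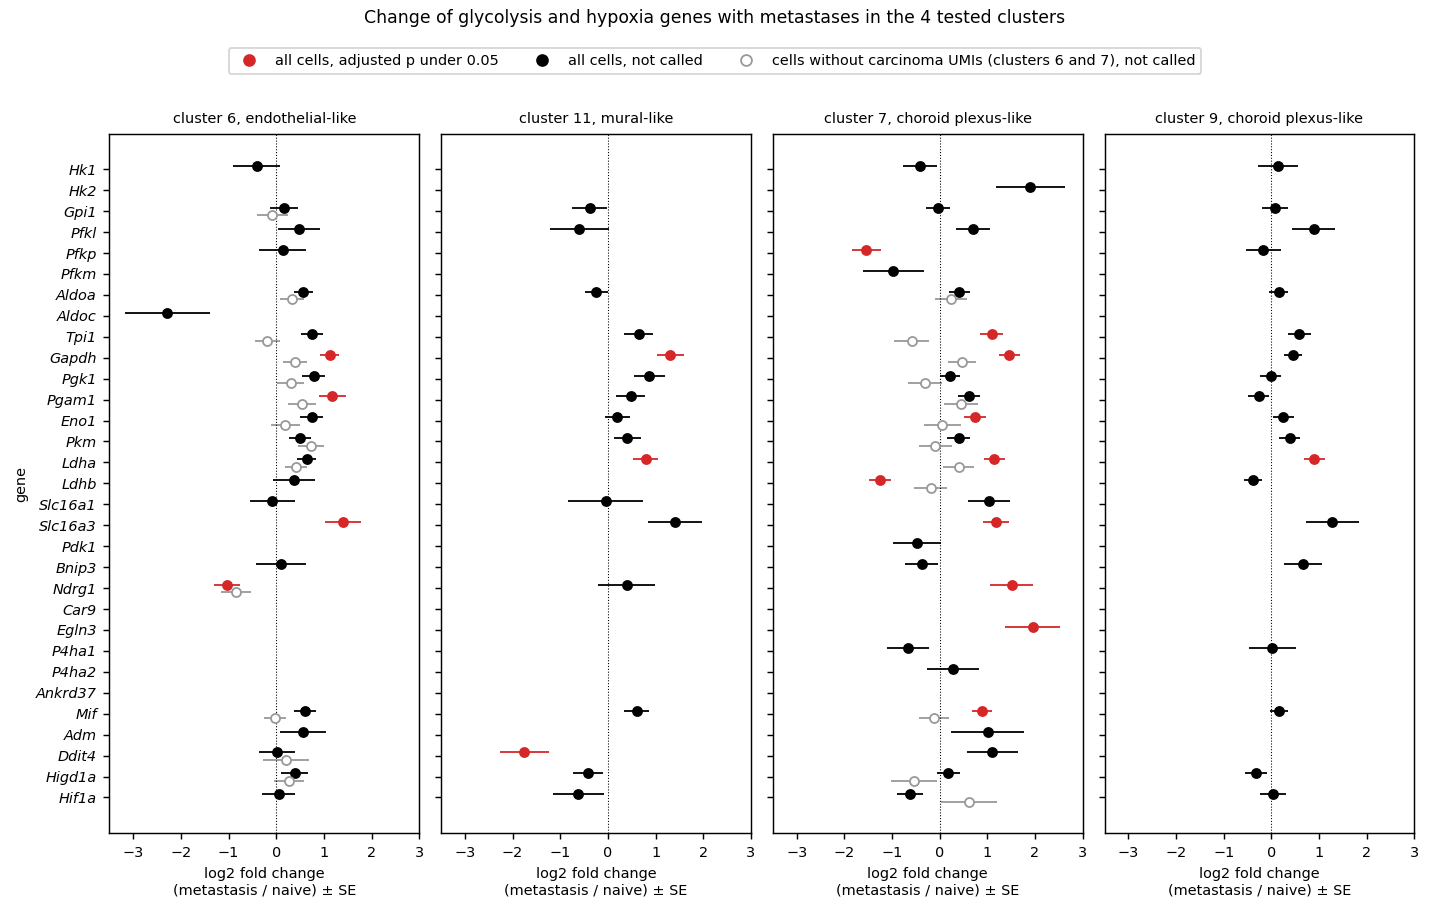
Log2 fold change of each tested gene, metastasis over naive, with its standard error, in clusters 6, 11, 7 and 9; red points passed an adjusted p under 0.05 in all cells, black points did not, and open grey points are cells without carcinoma UMIs in clusters 6 and 7. Ndrg1 is red at -1.03 in cluster 6 and at 1.51 in cluster 7, and Ldha and Ldhb are red on opposite sides of 0 in cluster 7.

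Choroid plexus-like cluster 7 had the most changes. Ldha was 721 and 555 CPM in naive brains and 1258 and 1586 CPM with metastases (log2 1.14, SE 0.22, adjusted p = 0.00527), while Ldhb was 660 and 487 CPM and then 268 and 223 CPM (it fell by 1.24 on the log2 scale, SE 0.23, adjusted p = 0.00445). The Ldha share of the family went from 52.7% ± 0.7 to 85.0% ± 3.7 (SD, n = 2 each), and the two-sided exact permutation p was 0.333, which is the lowest that 4 brains allow. Gapdh had the largest abundance, 1075 and 899 CPM and then 2333 and 3134 CPM (log2 1.46, SE 0.22, adjusted p = 0.00289).

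The other called genes of cluster 7 came from each role. Tpi1 went from 444 and 286 to 717 and 880 CPM (log2 1.09), Eno1 from 436 and 319 to 560 and 725 CPM (log2 0.74), Slc16a3 from 102 and 84.0 to 206 and 226 CPM (log2 1.19) and Mif from 888 and 714 to 1410 and 1587 CPM (log2 0.89). Ndrg1 went from 36.6 and 16.8 to 67.4 and 101 CPM (log2 1.51, adjusted p = 0.0274) and Egln3 from 8.14 and 16.8 to 42.8 and 43.8 CPM (log2 1.95, adjusted p = 0.0273). Pfkp, the leading phosphofructokinase of this cluster, fell from 130 and 101 to 40.2 and 41.3 CPM (by 1.54 on the log2 scale, adjusted p = 0.00571). Hif1a itself was 175 and 277 CPM and 153 and 131 CPM, below the naive brains in both metastatic brains but not called (adjusted p = 0.110).

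Of 28 listed genes tested, 8 were called higher (28.6%) and 2 lower (7.14%), beside 14.2% of 5963 genes called higher and 16.9% lower, so calls were frequent in this cluster at large. The median log2 fold change was 0.52 over the listed genes and 0.11 over all genes tested. Of 18 other glycolysis genes tested, 4 were called higher, led by Eno3, an enolase otherwise of muscle (log2 1.71), and 3 lower, led by Pdk4, a pyruvate dehydrogenase kinase (-2.47). Of 34 other HIF and hypoxia genes tested, 10 were called higher, among them Plod1, and 7 lower, among them Vldlr and Gbe1. Of 47 nuclear respiratory chain genes tested, 24 were called lower and 0 higher by edgeR. Of 17 citric acid cycle genes tested, 5 were called lower and 0 higher, with a median log2 fold change of -0.02 over the 17.

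Markers moved too in cluster 7. The 10 choroid plexus markers summed to 284714 and 269444 CPM in naive brains and 128511 and 76430 CPM with metastases, none at 0, and carcinoma markers to 654 and 508 CPM and then 875 and 1021 CPM, with 6 of 10 at 0 in naive and 4 of 10 in metastatic brains. Choroid plexus epithelium makes some of the same keratins. In cells without carcinoma UMIs (51 and 26 naive, 31 and 26 with metastases), choroid plexus markers were 254703 and 262462 CPM and 276147 and 322962 CPM, and no listed gene was called.

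In those cells Ldha was 707 and 660 CPM and 1087 and 687 CPM (log2 0.40, SE 0.32, edgeR adjusted p = 0.821) and Ldhb 735 and 528 CPM and 488 and 687 CPM (a log2 fold change of -0.19, SE 0.34, adjusted p = 0.921). Tpi1 lay on the other side of 0, at -0.59 (SE 0.36), and Mif at -0.13 (SE 0.31). Of 12 listed genes tested none was at an unadjusted p under 0.05, beside 40 of 650 genes tested. Of those 650 genes, 0.154% were called higher. The Ldha share was 49.0% and 55.6% in naive brains and 69.0% and 50% with metastases. The 95% intervals of these log2 fold changes, -0.23 to 1.03 for Ldha and -0.86 to 0.48 for Ldhb, did not include the values of all cluster 7 cells. Those values have an error of their own and rest partly on the same cells, so the difference was not tested. Cells without carcinoma UMIs had median depths of 1648 and 1318 UMIs (naive) and 2020 and 1578.5 UMIs (metastases). Slc16a3, Ndrg1, Egln3 and Pfkp did not pass the filter on low counts there.

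With single brains left out of cluster 7, Gapdh, Ldha, Ldhb, Tpi1 and Slc16a3 kept their calls by edgeR. Pfkp was lost without naive 1 (adjusted p = 0.0870), Eno1 without naive 2 (0.210) or metastasis 2 (0.118), Mif without naive 2 (0.0737), Ndrg1 without naive 2 (0.0650) or metastasis 2 (0.0556), and Egln3 without naive 1 (0.258) or metastasis 2 (0.0747). Pfkp and Ndrg1 were also lost with DESeq2, and Eno1 and Egln3 without called doublets.

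**Figure D5:**
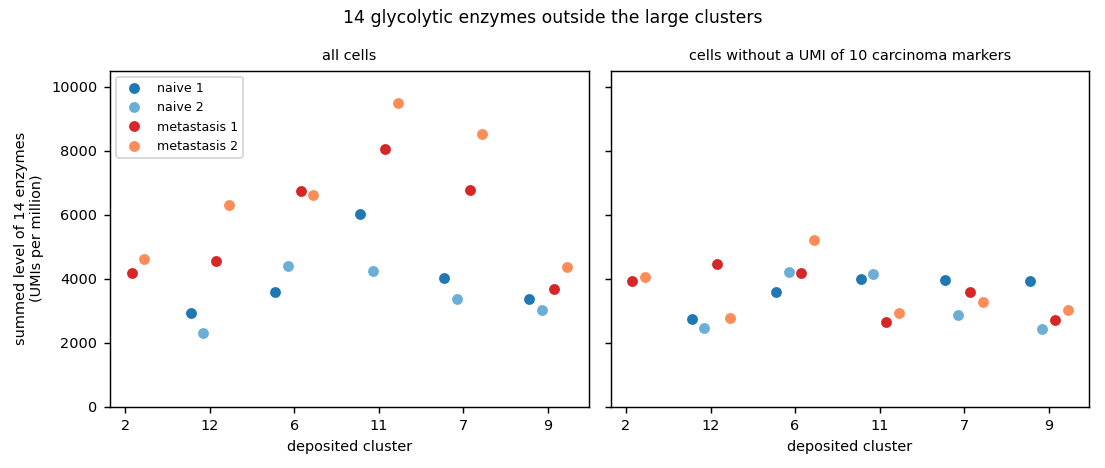
Summed level of the 14 glycolytic enzymes (CPM) in each brain for the clusters outside the large ones, over all cells at the left and over cells without a UMI of 10 carcinoma markers at the right; naive brains are left out of cluster 2. In cluster 7 the naive brains are at 4032 and 3362 and the metastatic brains at 6764 and 8505 over all cells, and the 4 brains overlap at the right, where cluster 11 rests on 4 and 6 metastatic cells.

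The deeper choroid plexus-like cluster 9 changed little. Ldha went from 310 and 306 CPM to 546 and 605 CPM (log2 0.90, SE 0.22, adjusted p = 0.0106), the single call among 19 listed genes tested, beside 3.83% of 3473 genes called higher and 0.461% lower. Ldhb was 1060 and 1338 CPM and 926 and 902 CPM (a log2 fold change of -0.39, adjusted p = 0.273). The Ldha share went from 20.6% ± 2.8 to 38.6% ± 2.2 (SD, n = 2 each, exact permutation p = 0.333). The call was lost without naive 1 (0.305), naive 2 (0.235) or metastasis 1 (0.118), with log2 fold changes of 0.86 to 0.98, and also with DESeq2 and without called doublets. Carcinoma markers were 555 and 592 CPM in naive brains and 652 and 699 CPM with metastases, and choroid plexus markers 401010 and 418308 CPM and 365095 and 329138 CPM. Only 2 to 8 cells per brain lacked a carcinoma UMI, so no test was made in them. Ldha took 7 of 31 and 2 of 8 lactate dehydrogenase UMIs in those of the naive brains (22.6% and 25.0%) and 12 of 34 and 4 of 27 with metastases (35.3% and 14.8%), so the conditions overlapped there.

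In mural-like cluster 11, Gapdh and Ldha were higher and Ddit4 lower. Gapdh went from 1998 and 1238 CPM to 3680 and 4672 CPM (log2 1.31, SE 0.29, adjusted p = 0.00196) and Ldha from 1317 and 871 CPM to 1904 and 2046 CPM (log2 0.79, SE 0.26, adjusted p = 0.0396). Ddit4 was 241 and 275 CPM and then 68.6 and 78.8 CPM (it fell by 1.75 on the log2 scale, SE 0.51, adjusted p = 0.0191). Of 17 listed genes tested, 2 were called higher and 1 lower, beside 3.82% of 2620 genes called higher and 12.3% lower. Gapdh was lost without metastasis 1 (adjusted p = 0.0770) or metastasis 2 (0.329), Ldha without naive 2 (0.135), metastasis 1 (0.276) or metastasis 2 (0.375), and Ddit4 without naive 1 (0.166), metastasis 1 (0.239) or metastasis 2 (0.288). Ddit4 was also lost with DESeq2 and with no filter on low counts.

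The metastatic cells of cluster 11 also differed from the naive ones in depth and in mural markers. Their median depth was 9974 and 10370 UMIs against 814 and 871, mural markers summed to 2607 and 1989 CPM against 14582 and 26259, and carcinoma markers to 919 and 976 CPM (8 of 10 at 0) against 430 and 154 CPM (7 and 8 at 0). Of 15 immediate early genes tested, 12 were lower with metastases, Fos by 3.25 on the log2 scale. The part of these in the result was not tested. In cells without carcinoma UMIs, the 14 enzymes were 3977 and 4145 CPM in naive brains and 2646 and 2932 CPM with metastases, from 4 and 6 metastatic cells.

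Cluster 12 could be compared only with 10 cells per brain as the minimum (60, 33, 26 and 15 cells). Pkm went from 471 and 421 CPM in naive brains to 1142 and 1301 CPM with metastases (log2 1.44, SE 0.33, adjusted p = 0.0278), the only call among 10 listed genes tested, beside 1.82% of 989 genes called higher. Ldha went from 646 and 784 CPM to 1356 and 1637 CPM (log2 1.07, adjusted p = 0.0552). Without cells holding neutrophil or erythrocyte UMIs, both passed, Pkm with a log2 fold change of 1.35 (adjusted p = 0.0381) and Ldha with 1.11 (adjusted p = 0.0442), beside 3.72% of 565 genes called higher. Microglia markers summed to 14607 and 13166 CPM in naive brains and 7321 and 4035 CPM with metastases, and monocyte markers to 881 and 1215 CPM and then 2997 and 1101 CPM. The part of that shift in the result was not tested, and without cells holding carcinoma UMIs Pkm had an adjusted p of 0.101, beside 0.402% of 498 genes called higher. The call in all cells was lost without naive 1 (0.310) or naive 2 (0.393), at log2 fold changes of 1.42 and 1.26, and also with DESeq2 and with no filter on low counts.

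Whether the change differed between clusters was tested with an interaction of cluster and condition in 1 edgeR model over clusters 6, 7, 9 and 11 with a brain term, for 29 listed genes and 6 pairs of clusters. Ndrg1 changed in opposite directions in clusters 7 and 6 (difference of log2 changes 2.46, SE 0.53, adjusted p = 0.000698), where 3.55% of 6247 genes differed. Ldhb and Aldoc also differed between those clusters, by -1.68 (SE 0.52, adjusted p = 0.0403) and 3.07 (SE 0.92, adjusted p = 0.0299). Pgam1 differed between clusters 9 and 6 by -1.43 (SE 0.38, adjusted p = 0.0190), where 0.944% of genes did, and Ddit4 between clusters 11 and 7 by -2.55 (SE 0.74, adjusted p = 0.0430), where 1.46% did. The share of genes that differed was 1.28% for clusters 11 and 6, 1.81% for 11 and 9 and 5.25% for 9 and 7, with no listed gene called there. Aldoc did not pass the filter on low counts in cluster 7 alone. All cells entered the model, those with carcinoma UMIs included. Among cells without carcinoma UMIs, Ndrg1 did not pass that filter in cluster 7. In cluster 0 the Ndrg1 level lay below that of naive cluster 6 and above that of naive cluster 7. The part of carcinoma RNA in the differences was not tested. The changes of Gapdh and Ldha were not shown to differ between any pair of clusters. For Gapdh in cluster 9 against 7 the difference was -0.95 (SE 0.35, adjusted p = 0.0938). The Ndrg1 difference was not called without metastasis 2 (2.11, adjusted p = 0.122), and that of Aldoc rested on naive 2, without which it was 0.67 (adjusted p = 0.879), and metastasis 1 (1.73 without it, 0.455), while it rose to 9.48 without naive 1 and 5.76 without metastasis 2. Without the brain term the differences of Ldhb, Aldoc, Pgam1 and Ddit4 were not called either, and that of Ndrg1 was. Those of Ldhb and Ddit4 were lost without any 1 of the 4 brains (adjusted p 0.0520 to 0.605 and 0.140 to 0.399), and that of Pgam1 without naive 1, metastasis 1 or metastasis 2 (0.0934 to 0.518).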

How the data were processed

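Raw UMI counts of each gene in each cell were deposited by the authors, with raw counts of each antibody tag, of which CD45 and CD11b were used. The submitters' processing notes name Cell Ranger 3.0.2, Seurat 3.0.1 and the build mm10, with settings not given in the sources used here. A further table deposited by the authors assigns each cell a hashing antibody, a condition and a cluster number, and gives its percent of mitochondrial UMIs, used in an alternative. No cell was filtered out, and no correction for free RNA was made. Scrublet (scanpy 1.11.5, expected rate 8%) called 220 cells (1.77%) doublets, which were kept and left out in an alternative.

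Counts were summed per brain and cluster and tested with edgeR 4.0.16 (quasi-likelihood, TMM, filterByExpr, R 4.3.3), after a test on simulated data, with DESeq2 1.42.0 as an alternative. Shares have 95% Clopper-Pearson intervals, which cover counting error only, and fold changes 95% normal intervals from the SE. A cluster was named from at least 3 fixed markers that reached 50 CPM and lay 2-fold above all other cells (20 CPM added to both). All 31 genes were named, and from each wider list and tested cluster up to 3 called genes per direction with the largest change. The genes and lists were chosen with earlier results of these data known. The alternatives were other scalings, filters, brains and choices of cells; those for cluster 12, and clusters 7 and 9 summed without carcinoma UMIs, were added after seeing the data.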

Additional observations from a re-analysis of the deposited data

Results flagged for a closer look

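In 5 genes the change with metastases differed between a pair of clusters by the interaction test of edgeR, each value being the log2 change in the first cluster minus that in the second. Ndrg1 differed by 2.46, Aldoc by 3.07 and Ldhb by -1.68 between clusters 7 and 6. Pgam1 differed by -1.43 between clusters 9 and 6, and Ddit4 by -2.55 between clusters 11 and 7. The adjusted p of each, with and without single brains, stands in the report. All cells entered this test, and the part of carcinoma RNA in the differences was not tested.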

How the results depend on the processing

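No paired analysis was possible because the hashing antibody names run from 1 to 4 and share no number between conditions. Cells without carcinoma UMIs gave 0 genes higher and 0 lower in cluster 6 and 1 and 0 in cluster 7 (also 1 and 0 with clusters 7 and 9 summed), against 106, 238, 848 and 1008 in all cells, and Tpi1 and Mif changed sign in cluster 7 (-0.59 and -0.13). DESeq2 called 96 genes lower in cluster 6, 425 higher and 323 lower in cluster 7, 30 and 0 (of 133 and 16) in cluster 9 and 139 lower (of 322) in cluster 11. Without the low-count filter 0 and 0 were called in cluster 6, 1497 higher in cluster 7, 7 lower in cluster 9 and 207 and 206 in cluster 11, where 100 were higher. Without doublets 67 were higher in cluster 6 and 47 and 1 called in cluster 9, where cells without neutrophil or erythrocyte UMIs gave 84 and 6 and cells of at most 10% mitochondrial UMIs 84 and 9. With single brains left out, genes higher and lower ranged over 25 to 126 and 26 to 265 in cluster 6, 4 to 85 and 0 to 11 in cluster 9 and 0 to 188 and 0 to 204 in cluster 11, and genes lower over 541 to 916 in cluster 7. With 10 cells per brain 8 clusters could be tested in place of 4. Interaction calls without the brain term were 111 of 222 for clusters 7 against 6, 41 of 80 for 11 against 6, 52 of 91 for 11 against 7, 18 of 59 for 9 against 6 and 135 of 328 for 9 against 7, and with single brains left out 34 to 201, 12 to 54, 22 to 61, 20 to 45 and 7 to 196, with 62 to 70 of 113 for 11 against 9.

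The summed enzymes of cluster 0 over another cluster of metastatic brains, weighting cells equally, were 2.25-fold (cluster 2), 2.04 (6), 1.68 (7), 2.66 (9), 1.28 (11) and 2.29 (12), against 2.19, 1.44, 1.27, 2.41, 1.10 and 1.81. Against cells without carcinoma UMIs they were 2.42, 2.07, 2.82, 3.37, 3.46 and 2.85, and without mitochondrial and ribosomal genes 2.65 (2), 1.59 (6), 3.04 (9) and 2.14 (12). Without doublets cluster 2 gave 2.40, and at most 10% mitochondrial UMIs cluster 9 gave 2.24. The Ldha share in cells without carcinoma UMIs was 93.7% (naive) and 92.9% (metastasis) in cluster 6, 59.5% (metastasis) in cluster 7, 23.8% and 25.1% in cluster 9 and 69.9% (metastasis) in cluster 12, where all cells gave 94.8%, 95.7%, 85.0%, 20.6%, 38.6% and 82.3%. Without doublets it was 94.1% and 94.8% in metastatic clusters 2 and 6 and 48.2% in naive cluster 7. Cells with an Ldhb UMI were 0.20% at 2000 UMIs and 1.91% unthinned in cluster 0 and 78.9% and 97.1% in cluster 9 (metastasis), and with a Hk2 UMI 31.2% and 24.5% in naive cluster 12. For single genes, 834 alternatives kept their side of the threshold, 77 lost the call and 26 gained one. A further 2 changed sign with a call before or after. Sign changes of genes not called either way were counted among the 834. The cause was not tested. Depth limits the small clusters most, where a gene may rest on under 30 UMIs.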

Other observations

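Cluster 8 was led by MHC class II genes, with 6 of 9 T cell, 3 of 7 NK and 5 of 11 monocyte markers above all other cells. It held 18, 18, 184 and 242 cells and entered only with 10 cells per brain as the minimum. Ldha was 496 and 598 CPM there in naive brains and 1841 and 1579 CPM with metastases (log2 1.64, SE 0.28, edgeR adjusted p = 0.00797), the single call among 18 listed genes tested, beside 0.356% of 3373 genes called higher. The 10 carcinoma markers summed to 249 and 53.2 CPM in naive brains and 576 and 586 CPM with metastases, with 8 and 9 of 10 at 0 and then 5 and 4 of 10. Cells without a carcinoma UMI (14, 17, 133 and 186) were not tested. Among them Ldha had 8 of 13328 and 8 of 15580 UMIs in naive brains. With metastases it had 156 of 162694 and 163 of 194285, in each a higher share than in either naive brain. The share of all genes that lay apart in this way was not counted. The 14 enzymes, which do not include Ldha, summed there to 3977 and 4236 CPM in naive brains and 4278 and 3660 CPM with metastases. The conditions overlapped in that sum. Without called doublets metastasis 1 kept 224790 of its 435578 UMIs in cluster 8. The part of carcinoma RNA or doublets in the Ldha call was not tested.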
